A study of Sus scrofa with 45 samples.

Results

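The messages described here encode 6 surface proteins of T cells: the CD3 chains (CD3D, CD3E and CD3G), CD2, and the coreceptors CD8A and CD4. They were measured in the blood of Clawn miniature pigs fed a control diet, a diet rich in fat and cholesterol (HFCD) or that diet with added sucrose (HFCSD). The 6 genes were chosen by name as T cell surface genes. Every probe that named one of them by accession, gene name or description was used. This took 12 of the 43603 probes on the porcine Agilent array and 6 of the 1810 genes that its probes name.

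The CD3 chains are the signalling part of the T cell receptor complex, and all mature T cells carry them. CD2 is an adhesion molecule of T cells and natural killer cells. CD4 and CD8 are coreceptors that bind class II and class I histocompatibility molecules. In the pig a large group of T cells carries both coreceptors, CD8A is also found on natural killer cells and many gamma delta T cells, and CD4 and CD2 are not strictly limited to T cells.

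The pigs were male, 12 weeks old at the start of feeding and kept free of specific pathogens. RNA was taken after 10, 19 and 27 weeks of feeding from whole blood with the PAXgene kit. At 27 weeks it was also taken from white blood cells with the LeukoLock kit, which holds white cells back on a filter. Each RNA was run on 1 one-colour array. The 45 arrays form 12 groups of 4 arrays each, except for 3 arrays each in whole blood of HFCSD at 19 weeks, of HFCD at 27 weeks and of HFCSD at 27 weeks.

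The labels number the arrays within each group and do not tie an array to a pig, so every p-value given here measures only the spread between these arrays. Between 35.4% and 53.3% of the probe spots on an array were well above background. The group means of this share, for control, HFCD and HFCSD in turn, were 41%, 47.8% and 43.7% in whole blood at 10 weeks. They were 44.6%, 40.2% and 42.8% at 19 weeks, 46.2%, 46.2% and 39.4% at 27 weeks, and 47.6%, 45.1% and 47.6% in white blood cells. The arrays were scanned on 5 days. All arrays of 10 weeks were scanned on day 1, all whole blood arrays of 27 weeks on day 4 and all white blood cell arrays on day 5. Feeding period, age and scan day therefore cannot be told apart, nor can sample type, kit and scan day. At 19 weeks control replicate 1 and all diet arrays were scanned on day 3 and control replicates 2 to 4 on day 2.

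CD3E, CD8A, a pair of CD3D probes, 1 CD3G probe and a pair of CD2 probes were well above background on all 45 arrays. The other CD3G probe, A_72_P354513, was so on 44 arrays and the third CD3D probe, A_72_P185936, on 43. The CD4 probe A_72_P077421 was well above background on 32 arrays, which were all 12 of white blood cells and 20 of the 33 of whole blood. The third CD2 probe, A_72_P260397, passed on 10 white blood cell arrays and 5 whole blood arrays. The second CD4 probe, A_72_P306178, was not well above background on any array. The value of a gene is the mean over its probes that were well above background on at least 0.5 of the arrays, 10 probes in all, and levels are not compared between probes or genes because each probe binds with its own strength.

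Probes that name the same gene did not all move together. CD3G was read by a pair of probes whose values had a correlation of 0.855 over the 45 arrays. For CD3D, probe A_72_P014531, which names the gene through a cDNA sequence, had correlations of 0.35 and 0.262 with the others over the same arrays. For CD2 the correlation between A_72_P131826 and A_72_P178131 was 0.0975, and that between A_72_P178131 and A_72_P260397 was 0.671. Tests for CD3D and CD2 are therefore given by probe, and where a value of the whole gene is given it averages probes that did not move together. The CD3D probes A_72_P088671 and A_72_P185936 and the CD2 probe A_72_P178131 recur in the differences that follow, and their sequences are given to identify them. The last 8 bases of the first CD3D probe are the first 8 of the other, printed in capitals. The probes were not placed on transcripts here.
CD3D A_72_P088671: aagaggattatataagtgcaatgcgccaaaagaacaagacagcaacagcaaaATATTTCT
CD3D A_72_P185936: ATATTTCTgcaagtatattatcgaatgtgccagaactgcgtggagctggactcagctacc
CD2 A_72_P178131: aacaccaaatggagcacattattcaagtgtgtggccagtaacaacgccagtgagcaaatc

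Across the 12 groups the genes followed different orders. CD3E was highest in whole blood at 10 weeks, with mean log2 intensities of 10.34 ± 0.17 (SD, n = 4) for HFCD, 10.17 ± 0.31 (n = 4) for control and 10.14 ± 0.17 (n = 4) for HFCSD. It was next highest in white blood cells of HFCSD at 9.59 ± 0.22 (n = 4), and lowest in control whole blood at 19 weeks (8.73 ± 0.38, n = 4) and 27 weeks (8.05 ± 0.77, n = 4). The step of 0.56 from whole blood of HFCSD at 10 weeks to white blood cells of HFCSD was the only step between neighbouring groups of CD3E that exceeded the larger SD of the pair. CD3G was highest in the 3 white blood cell groups, at 9.49 ± 0.23 for HFCSD, 9.41 ± 0.38 for HFCD and 9.30 ± 0.40 for control. A step of 0.78 separated them from the next group, whole blood of HFCSD at 19 weeks (8.51 ± 0.29, n = 3). The 9 whole blood groups of CD3G ran down to 7.80 ± 0.53 in control at 19 weeks with no step beyond the spread.

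CD3D had its 3 highest means in white blood cells, 8.73 for HFCSD, 8.65 for HFCD and 8.48 for control, followed by whole blood at 10 weeks with 8.35 for HFCD, 8.29 for control and 8.05 for HFCSD. The lowest were HFCD at 27 weeks (7.47) and control at 19 weeks (7.44), and no neighbours in this order of the gene mean differed beyond their spread. By single probes some did: A_72_P088671 had a step of 0.34 (larger SD 0.30) between white blood cells of control and whole blood of HFCD at 10 weeks. A_72_P185936 had steps of 0.30 (SD 0.27) above and 0.69 (SD 0.46) below whole blood of HFCSD at 10 weeks. CD2 ran from 7.79 ± 0.23 in whole blood of HFCD at 10 weeks to 6.74 ± 0.26 in whole blood of control at 27 weeks, also without a step beyond the spread. Its probes differed here: by A_72_P131826 the 3 white blood cell groups were the lowest, at 6.40 to 6.58, while by A_72_P178131 they were among the 5 highest, at 8.22 to 8.48. CD8A was highest in white blood cells, at 10.44 ± 0.17 for HFCSD, 10.30 ± 0.60 for HFCD and 9.95 ± 0.48 for control. It was lowest in whole blood of control at 10 weeks (8.62 ± 0.44). The only step beyond the spread for CD8A was that of 0.38 between whole blood of HFCD (9.04) and of HFCSD (8.67) at 10 weeks. CD4 had means of 4.85 in white blood cells of HFCD, 4.84 in those of HFCSD and 4.75 in those of control. In whole blood only HFCD at 10 weeks (4.78) was measured on all its arrays, so the other groups are not ordered. Among the groups measured in full no step of CD4 exceeded the spread, and steps between the others are not read.

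**Figure D1:**
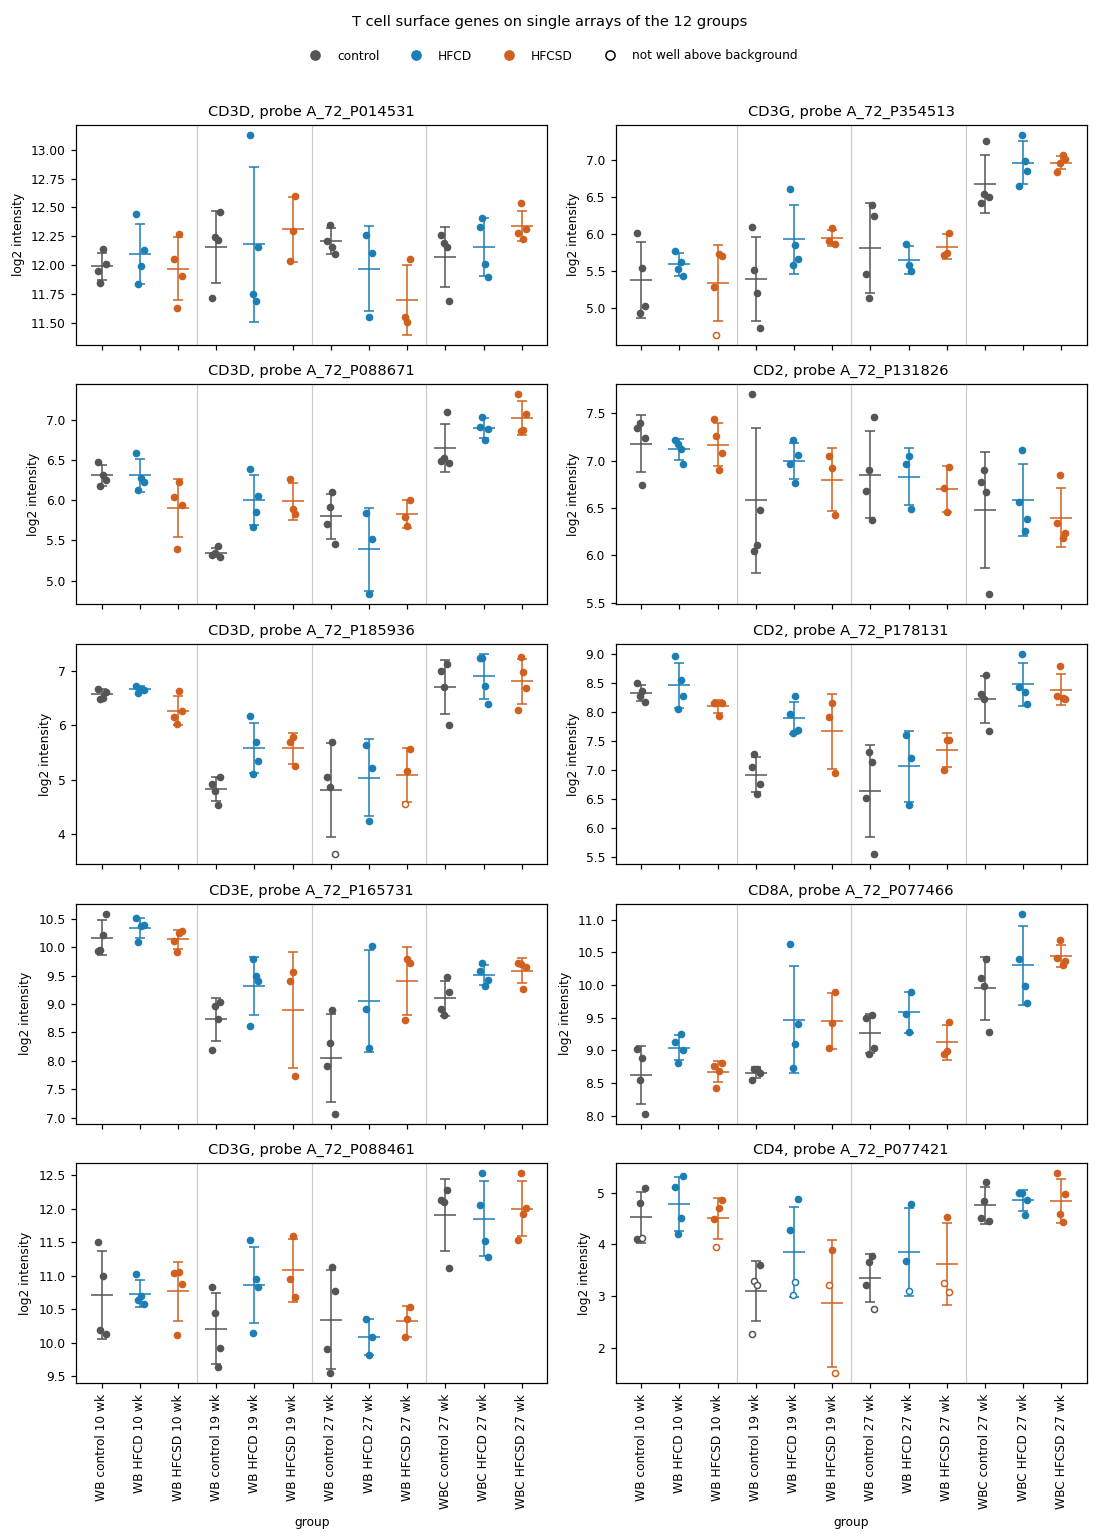
Log2 quantile normalized intensity (vertical axis) of the 10 probes that were well above background on at least 0.5 of the arrays, in the 12 groups (horizontal axis, WB for whole blood and WBC for white blood cells). Each point is 1 array, open where the probe was not well above background, and bars give the group mean and SD. CD3E is highest in whole blood at 10 weeks, and the CD3G probes are highest in the 3 white blood cell groups.

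Most T cell surface messages stood higher in white blood cells at 27 weeks than in whole blood of the same diet and week. This comparison asks how far each gene differs between white cell preparations and whole blood, taken as unpaired groups. The gene values of CD3G were 2.34 times those of whole blood in control pigs, 2.91 times in HFCD and 2.66 times in HFCSD. For CD3D the ratios were 1.8, 2.83 and 2.31 by probe A_72_P088671. The mean of the CD3D probes gave 1.83, 2.27 and 2.28, with 1 of them not well above background on 2 of the whole blood arrays. CD4 was not measured on every whole blood array, and its ratios were at least 2, 1.69 and 1.41, with arrays that did not measure it set to a floor described with CD2. The ratios of CD2, which average a probe that rose and one that did not pass, were 1.52, 1.49 and 1.29, those of CD8A 1.61, 1.65 and 2.49, and those of CD3E 2.08, 1.37 and 1.13.

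A probe was tested with limma if one or other of the compared groups showed it well above background on all usable arrays. A change is stated as a rise or fall where the p-value, adjusted over all probes tested by the Benjamini-Hochberg method, was under 0.05. In control pigs 8 of the 10 member probes tested rose in white blood cells, from all 6 genes, against 45.3% of the 19022 probes tested that changed in either direction. In HFCD pigs 6 of 10 rose, from 4 genes, against 47.5% of 19414 probes, and in HFCSD pigs 9 of 11 rose, from 5 genes, against 58.9% of 19689 probes. Some of these probes were measured in full only in white blood cells, through which they entered the test. Such a filter favours a rise, which the counts over probes measured on every array, given below, avoid. In HFCSD, CD2 A_72_P260397 was measured on no whole blood array, CD4 on 1 of 3 and CD3D A_72_P185936 on 2 of 3, while in control CD4 and CD3D A_72_P185936 were each measured on 3 of 4, and in HFCD CD4 on 2 of 3. Among member probes measured on every array of both groups, 6 of 8 rose in control, from 5 genes, 5 of 9 in HFCD, from 3 genes, and 6 of 8 in HFCSD, from 4 genes. The share of all probes that changed under this stricter filter was not taken, so these counts are not read as setting the members apart. In HFCD the members' share was close even to the 47.5% of all probes tested. No member probe fell in limma in any of the 3 diets. At an unadjusted p under 0.05 in limma the members counted 8, 7 and 9, beside 52.3%, 54.7% and 63.5% of all probes tested. A plain test named in the submitters' methods, called the methods' t-test here, gave 6, 5 and 9 members at that threshold and 5, 5 and 8 after adjustment. The median log2 change of the same 10 member probes was 0.97 in control, 1.16 in HFCD and 1.18 in HFCSD. Over all probes tested the medians were 0.17, 0.19 and 0.42, and 53.8%, 53.7% and 63.3% of the changed probes were rises. With arrays scaled to their 75th percentile the medians of all probes were 0.30 in control and 0.38 in HFCD, and with a model-based background subtraction that of HFCSD was 0.23.

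**Figure D2:**
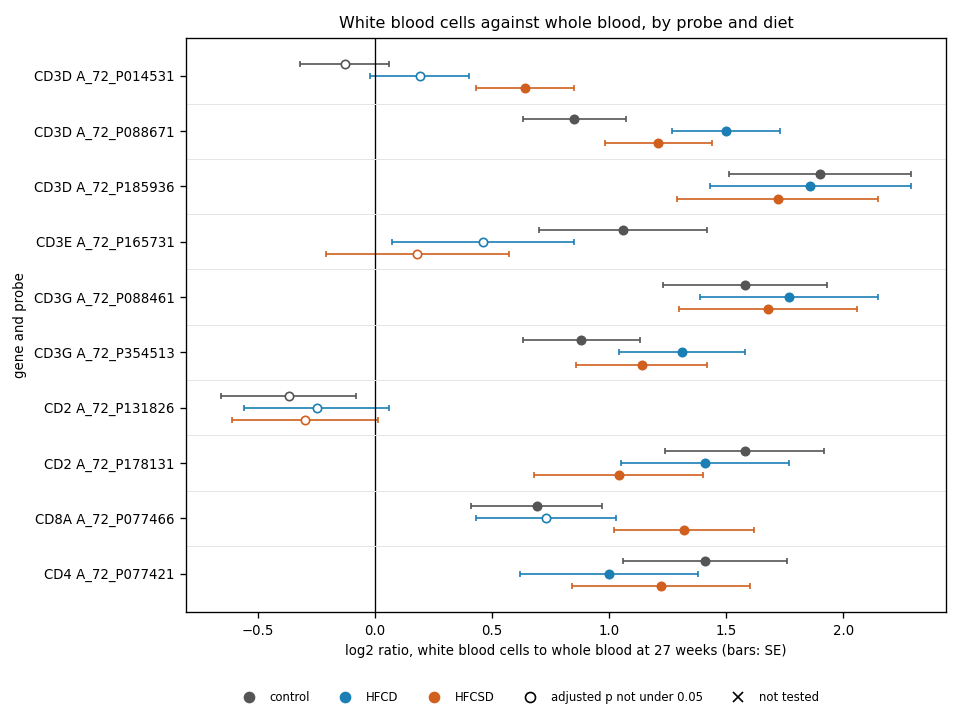
Log2 change from whole blood to white blood cells at 27 weeks (horizontal axis) for each probe (vertical axis) and diet. Points are limma estimates with bars of 1 SE, filled where the adjusted p was under 0.05. Estimates of both CD3G probes and of the CD3D probes A_72_P088671 and A_72_P185936 are above 0 in all 3 diets.

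Among the CD3 chains, a pair of CD3D probes separated the sample types in every diet. How many of all probes did so was not counted, and 45.3%, 47.5% and 58.9% of those tested changed in the 3 diets. A lack of overlap, here and for the genes below, is therefore not read as particular to these genes. Probe A_72_P088671 read 5.71, 5.92, 6.10 and 5.45 in control whole blood and 6.49, 6.53, 7.10 and 6.47 in control white blood cells. In HFCD it read 5.84, 4.83 and 5.52 in whole blood and 6.91, 7.04, 6.75 and 6.89 in white blood cells, and in HFCSD 5.79, 5.68 and 6.01 against 7.32, 6.86, 6.88 and 7.07. In each diet every white blood cell array was above every whole blood array. The log2 change was 0.85 ± 0.22 (SE, adjusted p = 0.00338) in control and 1.21 (adjusted p = 2.6e-04) in HFCSD, and in HFCD the rise was 2.83-fold (adjusted p = 5.0e-05). The overlapping probe A_72_P185936 rose by 1.86 (limma, adjusted p = 0.00159) in HFCD. In control and HFCSD it entered the test only through white blood cells, so no call is drawn there. Its fitted changes were 1.90 ± 0.39 (adjusted p = 6.7e-04) in control and 1.72 (adjusted p = 0.00213) in HFCSD. In each diet all 4 white blood cell arrays were above all whole blood arrays. The probe was not well above background on replicate 4 of control (3.64) and replicate 1 of HFCSD (4.55) in whole blood. With these at the floor described with CD2, white blood cells were at least 3.27-fold higher in control and at least 3.28-fold higher in HFCSD in this normalization. Over the alternatives the fitted log2 change of A_72_P185936 ran from 0.75 to 1.99 in control, 0.97 to 2.07 in HFCD and 0.59 to 1.92 in HFCSD, and that of A_72_P088671 from 0.39 to 0.90, 0.76 to 1.57 and 0.69 to 1.26. The third CD3D probe, A_72_P014531, changed by -0.13 in control (adjusted p = 0.597), a sign that turned to 0.17 when arrays were scaled to their 75th percentile. It changed by 0.19 in HFCD (adjusted p = 0.475), where that scaling gave 0.57 (adjusted p = 0.00816), and rose by 0.64 in HFCSD (adjusted p = 0.0142), with 4 of 4 white blood cell arrays above all whole blood arrays.

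CD3G rose in white blood cells in all 3 diets by both probes. Probe A_72_P088461 read 9.90, 9.54, 11.13 and 10.77 in control whole blood and 12.13, 12.11, 12.29 and 11.11 in control white blood cells, where 3 of 4 arrays were above all whole blood arrays. In HFCD it read 10.35, 9.81 and 10.09 against 12.06, 12.53, 11.52 and 11.28, and in HFCSD 10.08, 10.36 and 10.53 against 11.54, 12.53, 11.92 and 12.01, with no overlap between the groups in these 2 diets. The log2 changes were 1.58 ± 0.35 (adjusted p = 0.00115) in control, 1.77 (adjusted p = 8.8e-04) in HFCD and 1.68 (adjusted p = 9.6e-04) in HFCSD. By probe A_72_P354513 they were 0.88 ± 0.25 (adjusted p = 0.00864), 1.31 (adjusted p = 7.6e-04) and 1.14 (adjusted p = 0.00165), with 4 of 4 white blood cell arrays above all whole blood arrays in each diet. For this probe in control the adjusted p was 0.0618 when only the groups compared were fitted and 0.111 by the methods' t-test.

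CD3E passed the test in control, a result that depended on single arrays. There it read 7.91, 8.31, 8.90 and 7.07 in whole blood and 8.91, 8.80, 9.48 and 9.22 in white blood cells, with 3 of 4 white blood cell arrays above all whole blood arrays. It rose by 1.06 ± 0.36 (adjusted p = 0.0237, and 0.0966 by the methods' t-test). Without whole blood replicate 4 of control the change was 0.73 (adjusted p = 0.107), without whole blood replicate 1 it was 1.01 (adjusted p = 0.053), and without white blood cell replicate 3 it was 0.93 (adjusted p = 0.0734). In HFCD the values were 8.92, 8.23 and 10.02 in whole blood and 9.59, 9.72, 9.32 and 9.43 in white blood cells, a change of 0.46 (adjusted p = 0.348). In HFCSD they were 8.72, 9.79 and 9.73 against 9.72, 9.71, 9.26 and 9.66, a change of 0.18 (adjusted p = 0.714). In both cholesterol diets the ranges of whole blood and white blood cells overlapped.

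For CD2, probe A_72_P178131, the mean of 5 spots, read 6.53, 7.32, 7.14 and 5.56 in control whole blood and 8.31, 8.23, 8.64 and 7.68 in control white blood cells. In HFCD its mean was 7.07 ± 0.61 (SD, n = 3) in whole blood and 8.48 ± 0.37 (n = 4) in white blood cells, and in HFCSD 7.35 ± 0.30 (n = 3) and 8.39 ± 0.27 (n = 4). All white blood cell arrays of a diet were above all its whole blood arrays. It rose by 1.58 ± 0.34 (adjusted p = 8.6e-04) in control, by 1.41 (adjusted p = 0.00384) in HFCD and by 1.04 (adjusted p = 0.0199) in HFCSD. In HFCSD the change was 0.87 (adjusted p = 0.0935) without whole blood replicate 1 and 0.91 (adjusted p = 0.0572) without white blood cell replicate 2. Probe A_72_P131826 gave -0.37 in control, -0.25 in HFCD and -0.30 in HFCSD and passed the test in no diet, with an adjusted p of 0.31 in control. The dim probe A_72_P260397 entered the test in HFCSD alone, and only through the white blood cell arrays. It is among the 9 rises counted there, but its fitted change is not given. No whole blood array of 27 weeks measured this probe, so its fold is given only as a bound: the mean of the white blood cell arrays over a floor, which on each whole blood array is the lowest intensity that any probe had there while well above background, or the probe's own value where that was higher. White blood cells exceeded whole blood at least 1.07-fold in HFCSD, where 4 of 4 white blood cell arrays measured the probe. In control and HFCD 3 of 4 did, and no bound is given.

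CD8A was read by 1 probe. It gave 9.49, 8.95, 9.54 and 9.04 in control whole blood and 10.11, 9.99, 10.40 and 9.28 in control white blood cells, so 3 of 4 white blood cell arrays were above all whole blood arrays. In HFCSD it gave 8.95, 8.99 and 9.43 against 10.42, 10.69, 10.30 and 10.37, without overlap. The rise was 0.69 ± 0.28 (adjusted p = 0.0476) in control and 1.32 (adjusted p = 0.00105) in HFCSD. In HFCD the values were 9.55, 9.28 and 9.90 in whole blood and 10.39, 11.09, 9.99 and 9.73 in white blood cells, a change of 0.73 (adjusted p = 0.0519). The control result lay at the edge of the threshold. It missed the threshold under 7 of 13 alternatives and when any 1 of 14 arrays was left out: whole blood control replicates 2 and 4, whole blood HFCD replicate 1, whole blood HFCSD replicates 1 and 2, white blood cell control replicates 1, 2 and 3, white blood cell HFCD replicates 1 and 3, and white blood cell HFCSD replicates 1 to 4. Over the left-out arrays its change ran from 0.54 to 0.91 and its adjusted p from 0.0113 to 0.156. The HFCD result passed without whole blood HFCD replicate 3, white blood cell control replicate 3 or 4, or white blood cell HFCD replicate 3 or 4, and under 4 alternatives: 1.11 with arrays scaled to their 75th percentile (adjusted p = 0.00408), 0.85 with the replicate block (adjusted p = 0.0198), 0.78 with the share of bright spots as covariate (adjusted p = 0.0286), and with a filter for probes present on all arrays (adjusted p = 0.0497).

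CD4 was read by probe A_72_P077421 near the limit of detection in whole blood. In control it gave 3.21, 3.65, 3.77 and 2.75 in whole blood, the last not well above background, and 4.51, 4.84, 5.21 and 4.45 in white blood cells. The groups did not overlap, and white blood cells were at least 2-fold higher. CD4 entered the tests between sample types only through white blood cells, so the test values are given beside the bounds and no call is drawn from them. In control the fitted log2 change was 1.41 ± 0.35 (limma, adjusted p = 0.00329). The bounds hold for this normalization. Over the alternatives the fitted change ran from 0.28 to 1.46 in control, 0.17 to 1.07 in HFCD and 0.33 to 1.29 in HFCSD. In HFCD, where replicate 2 of whole blood was not well above background, it was at least 1.69-fold higher (fitted log2 change 1.00 ± 0.38, adjusted p = 0.0371), with 3 of 4 white blood cell arrays above all whole blood arrays. This test missed the threshold without whole blood replicate 1 (0.92, adjusted p = 0.0974) or 2 (0.63, adjusted p = 0.242), and without white blood cell replicate 1 (0.96, adjusted p = 0.0737), 2 (0.96, adjusted p = 0.0714) or 4 (1.01, adjusted p = 0.0578). With a model-based background subtraction it was 0.17 (adjusted p = 0.225), and under 4 other alternatives the adjusted p was 0.0604 to 0.124. In HFCSD, where 1 of 3 whole blood arrays measured it, CD4 was at least 1.41-fold higher (fitted log2 change 1.22, adjusted p = 0.0106), with 3 of 4 white blood cell arrays above all whole blood arrays. Without whole blood replicate 1 of HFCSD this was 1.04 (adjusted p = 0.0586) and without replicate 3 it was 0.95 (adjusted p = 0.0634). The same test gave 0.82 (adjusted p = 0.0654) with arrays scaled to their 75th percentile and an adjusted p of 0.0755 by the methods' t-test.

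How far white blood cells exceeded whole blood was also compared between diets, by testing the difference of the log2 ratios in limma. For HFCD minus control 0 of the 10 member probes tested passed, against 0% of the 20072 probes tested. At an unadjusted p under 0.05 there were 0 members and 268 probes in all. For HFCSD minus control 0 of 11 member probes passed, against 1.38% of 20379 probes, of which 82 were higher and 199 lower. The alternative called the methods' t-test does not cover a difference of ratios and was not run for it. For CD3E the differences were -0.60 in HFCD (adjusted p = 1) and -0.88 in HFCSD (adjusted p = 0.373), and for CD8A they were 0.03 and 0.63 (adjusted p = 0.402 in HFCSD). The only member probe with an unadjusted p under 0.05 was CD3D A_72_P014531, whose ratio differed by 0.77 between HFCSD and control (limma, adjusted p = 0.157), among 3937 such probes in all. A diet in which a gene rose is therefore not shown to differ from one in which it did not pass.

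Whole blood arrays of HFCSD at 27 weeks had a lower share of spots well above background, 39.4%, than white blood cell arrays of HFCSD, 47.6%. With this share as a covariate, 5 of the 9 member probes that passed in HFCSD no longer did: CD3D A_72_P014531 at 0.24 (adjusted p = 0.509), CD3D A_72_P185936 at 0.59 (adjusted p = 0.347), CD2 A_72_P178131 at 0.03 (adjusted p = 0.959), CD8A at 0.86 (adjusted p = 0.0978) and CD4 at 0.73 (adjusted p = 0.29). The 9 include CD2 A_72_P260397, CD4 and CD3D A_72_P185936, which entered the test only through white blood cells. The cause of the lower share was not tested. CD3D A_72_P014531 in HFCSD also missed the threshold without whole blood replicate 1 (0.56, adjusted p = 0.0632) or 2 (0.54, adjusted p = 0.0648). In whole blood and white blood cells alike, more T cells and more RNA of these genes per cell cannot be told apart.

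Between 10 and 27 weeks of feeding, whole blood lost signal of the CD3E message in control. It also lost signal of CD2 by 1 probe in control and HFCD, and of CD3D by a pair of probes in HFCD. In control and HFCSD 1 of that pair was lower too. There it was not measured on every array at 27 weeks and entered the test only through 10 weeks. CD8A and CD3G did not pass the test in any diet, nor did CD4 in HFCD, where alone it could be tested. This comparison follows the groups through the feeding of growing pigs. The gene values at 27 weeks relative to 10 weeks were 0.23 for CD3E in control, 0.41 in HFCD and 0.602 in HFCSD. For CD2 they were 0.496, 0.559 and 0.656, as means of its probes. For CD3D they were 0.703, 0.532 and 0.949 by A_72_P088671, and 0.623, 0.541 and 0.704 as means of the probes, with 1 of them not well above background on 2 of the arrays at 27 weeks. For CD8A they were 1.55, 1.44 and 1.37, and for CD3G 1.02, 0.815 and 1.01. No diet had CD4 measured on every array of both weeks, and only in HFCD can a bound be given, by which the level at 10 weeks was at least 1.61 times that at 27 weeks.

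In control whole blood 3 of 9 member probes tested fell from 10 to 27 weeks, from 3 genes, against 20.7% of 17140 probes tested that changed in either direction. In HFCD 3 of 10 fell, from 2 genes, against 5.59% of 18862 probes, and in HFCSD 1 of 9 fell, against 10.4% of 16461 probes, so the members' share there was close to that of all probes. Among member probes measured on every array of both weeks, 2 of 8 fell in control, 3 of 9 in HFCD and 0 of 7 in HFCSD. The share of all probes that changed under this stricter filter was not taken. In control the members' share by this count was close to the 20.7% of all probes tested. How many of all probes separated the weeks without overlap was not counted either. The larger sets in control and HFCSD include the fall of CD3D A_72_P185936, which entered those tests only through 10 weeks. No member rose in limma in the 3 diets. The members with an unadjusted p under 0.05 in limma were 5, 4 and 2, beside 35.5%, 20.5% and 26.8% of all probes tested. By the methods' t-test 5, 6 and 4 members had such a p, and 1, 0 and 0 passed after adjustment. The median change of the 10 member probes was -0.44 in control, -0.78 in HFCD and -0.46 in HFCSD, beside medians over all probes tested of 0.08, 0.01 and -0.05. Of the changed probes 58.8%, 30.1% and 35.3% were rises. Whether the change over time differed between diets was not tested.

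**Figure D3:**
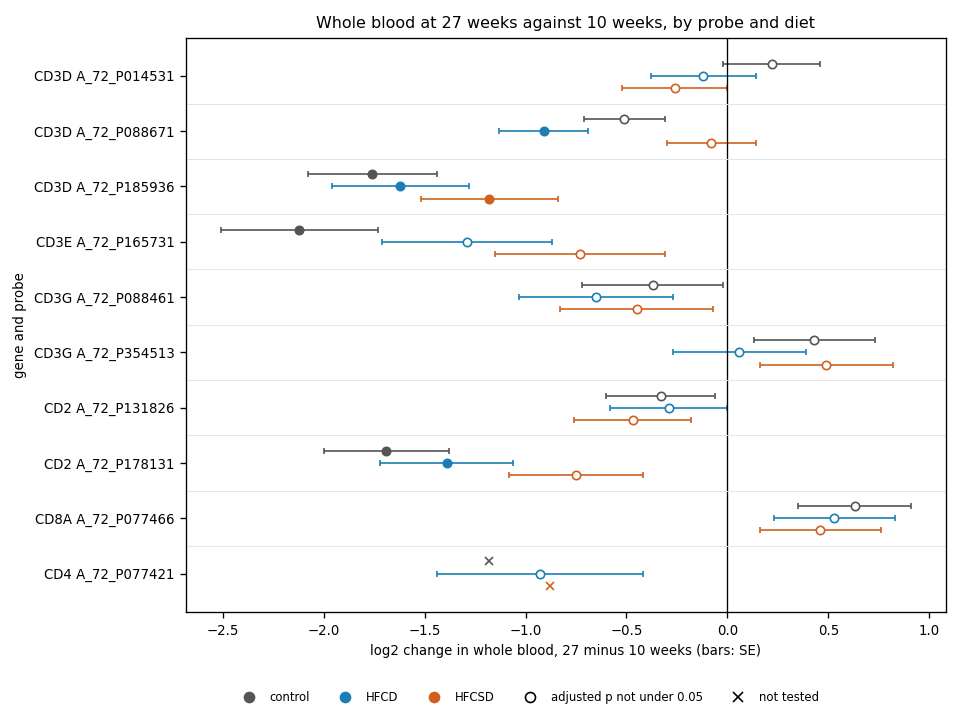
Log2 change in whole blood from 10 to 27 weeks of feeding (horizontal axis) for each probe (vertical axis) and diet. Points are limma estimates with bars of 1 SE, filled where the adjusted p was under 0.05, and crosses mark probes that were not tested. Estimates of CD3E, CD3D A_72_P185936 and CD2 A_72_P178131 are below 0 in all 3 diets.

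CD3E in control read 9.93, 9.95, 10.22 and 10.59 at 10 weeks. After 19 weeks the values were 8.19, 8.96, 8.73 and 9.04, and after 27 weeks 7.91, 8.31, 8.90 and 7.07. Every array at 27 weeks was below every array at 10 weeks, as was every array at 19 weeks. The fall to 27 weeks was -2.12 ± 0.39 in log2 (SE, adjusted p = 4.4e-04). In HFCD it read 10.51, 10.10, 10.37 and 10.40 at 10 weeks and 8.92, 8.23 and 10.02 at 27 weeks, also without overlap. That change was -1.29 with an adjusted p of 0.0701, which became 0.0403 at -1.21 with a model-based background subtraction and 0.0332 with all 45 arrays in 1 fit. It was 0.0441 at -1.77 without replicate 3 of HFCD at 27 weeks, 0.0372 without replicate 3 of HFCSD at 19 weeks and 0.0484 without replicate 4 of control at 27 weeks. In HFCSD the change was -0.73 (adjusted p = 0.27), from 10.11, 9.92, 10.26 and 10.28 to 8.72, 9.79 and 9.73, where all 3 later arrays were below all earlier ones.

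CD3D by probe A_72_P185936 fell in HFCD and was lower at 27 weeks in control and HFCSD. In control and HFCSD no call is drawn, because the probe entered the test only through the arrays of 10 weeks, which favours a fall. In control it read 6.67, 6.49, 6.50 and 6.62 at 10 weeks and 5.05, 4.87, 5.70 and 3.64 at 27 weeks, the last not well above background. In HFCD it read 6.72, 6.59, 6.66 and 6.65 and then 5.64, 4.25 and 5.22, and in HFCSD 6.16, 6.02, 6.64 and 6.27 and then 4.55, 5.16 and 5.56, of which 4.55 was not well above background. No array at 27 weeks reached the range at 10 weeks of the same diet. The fall in HFCD was -1.62 ± 0.34 (limma, adjusted p = 0.00573). The fitted changes in control and HFCSD were -1.76 ± 0.32 (adjusted p = 3.4e-04) and -1.18 ± 0.34 (adjusted p = 0.0268). In HFCD the adjusted p was 0.0579 at -1.23 without replicate 2 at 27 weeks. In HFCSD the test was missed without replicate 3 at 10 weeks (-1.06, adjusted p = 0.0838) or 4 (adjusted p = 0.0614), and without replicate 1 at 27 weeks (-0.91, adjusted p = 0.174) or 2 (-1.22, adjusted p = 0.0609). It was also missed with the share of bright spots as covariate (-0.92, adjusted p = 0.068). By the methods' t-test the adjusted p was 0.0624, 0.0867 and 0.0768 in the 3 diets. With unmeasured arrays at the floor, the level at 10 weeks was at least 2.97 times that at 27 weeks in control and at least 2.27 times in HFCSD.

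The neighbouring CD3D probe A_72_P088671 fell in HFCD by -0.91 ± 0.22 (adjusted p = 0.0148), with 3 of 3 arrays at 27 weeks below all arrays at 10 weeks. That call was missed without replicate 1 at 10 weeks (-0.82, adjusted p = 0.0551) and without replicates 2 (-0.63, adjusted p = 0.128) or 3 (-0.97, adjusted p = 0.0536) at 27 weeks. With a model-based background subtraction it was -0.37 (adjusted p = 0.094), and the adjusted p was 0.0853 with only the groups compared and 0.149 by the methods' t-test. In control the probe changed by -0.51 (adjusted p = 0.0751), which passed without replicate 2 of HFCD at 27 weeks (adjusted p = 0.0498), with the replicate block (adjusted p = 0.0433), with arrays scaled to their 75th percentile (-0.56, adjusted p = 0.0413) and with the share of bright spots as covariate (-0.66, adjusted p = 0.0238). Probe A_72_P014531 changed by 0.22 in control, -0.12 in HFCD and -0.26 in HFCSD and did not pass. CD3G also did not pass, with changes of -0.37, -0.65 and -0.45 by A_72_P088461 and of 0.43, 0.06 and 0.49 by A_72_P354513, of which 0.06 turned to -0.04 with a model-based background subtraction.

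CD2 by probe A_72_P178131 read 8.51, 8.28, 8.36 and 8.17 in control at 10 weeks. After 19 weeks it read 7.05, 7.28, 6.60 and 6.76, and after 27 weeks 6.53, 7.32, 7.14 and 5.56. In HFCD it read 8.97, 8.06, 8.55 and 8.27 at 10 weeks and 7.60, 6.41 and 7.21 at 27 weeks. In both diets all arrays at 27 weeks were below all arrays at 10 weeks. The falls were -1.69 ± 0.31 (adjusted p = 4.0e-04) in control and -1.39 ± 0.33 (adjusted p = 0.0134) in HFCD. The HFCD result was missed without replicate 1 at 10 weeks (-1.22, adjusted p = 0.0534), and without replicate 2 (-1.06, adjusted p = 0.102) or 3 (-1.46, adjusted p = 0.0538) at 27 weeks. By the methods' t-test the adjusted p was 0.0581 in control and 0.124 in HFCD. In HFCSD the change of A_72_P178131 was -0.75 (adjusted p = 0.144, and 0.0402 with only the groups compared). Probe A_72_P131826 changed by -0.33, -0.29 and -0.47 in control, HFCD and HFCSD and did not pass.

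Neither coreceptor passed a test from 10 to 27 weeks. CD8A was higher at 27 weeks by 0.63 in control (adjusted p = 0.105), 0.53 in HFCD (adjusted p = 0.335) and 0.46 in HFCSD (adjusted p = 0.345), and the control value passed without replicate 1 of HFCD at 19 weeks (adjusted p = 0.0321). CD4 could not be tested in control and HFCSD, because no group measured it on every array, and in HFCD its fitted change was -0.93 (adjusted p = 0.306). On single control arrays CD4 read 4.10, 4.79, 4.12 and 5.08 at 10 weeks, the third of them not well above background, and 3.21, 3.65, 3.77 and 2.75 at 27 weeks, the last of them not well above background, and these ranges did not overlap. The intensities of CD8A in control were 9.02, 8.55, 8.88 and 8.03 at 10 weeks and 9.49, 8.95, 9.54 and 9.04 at 27 weeks, which overlapped. In HFCD and HFCSD all 3 CD8A arrays at 27 weeks were above all 4 at 10 weeks.

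Between diets, none of the T cell surface genes passed the test in any sample type or week. These 12 comparisons ask whether fat and cholesterol, with or without sucrose, changed the T cell messages of blood. The diet groups of a week are compared with the same control arrays, so their values share those arrays. The members' median difference was largest at 19 weeks. At that time the arrays of both diets read a pair of the 3 CD3D probes and CD8A above every control array without passing the adjusted test. How many of all probes separated the diets in this way was not counted, so the separation is not read as particular to these genes. It could be narrow: for CD8A the lowest HFCD array read 8.73 and the highest control array 8.72.

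In whole blood at 10 weeks 0 of 10 member probes passed in limma for HFCD against control, beside 0.0281% of all probes, and 0 of 9 for HFCSD, beside 0.0123%. At 19 weeks 0 of 9 passed for HFCD, beside 0.0181%, and 0 of 9 for HFCSD, beside 0.0175%. At 27 weeks 0 of 9 passed for HFCD, beside 0.0165%, and 0 of 8 for HFCSD, beside 10.6% (1824 of 17135 probes). For white blood cells 0 of 10 passed for HFCD, beside 0.0276%, and 0 of 11 for HFCSD, beside 0.0366%. The members with an unadjusted p under 0.05 in these 8 comparisons were 0, 0, 4, 4, 0, 1, 0 and 1 in limma. For these comparisons the methods' t-test gave 0, 1, 3, 3, 0, 1, 0 and 1 at that threshold and 0 in each after adjustment. In limma an unadjusted p under 0.05 was reached by 10%, 1.73%, 12.5%, 11.9%, 5.54%, 32.3%, 4.72% and 11.4% of all probes tested. The median changes of the 10 member probes were 0.12, -0.03, 0.65, 0.60, 0.10, 0.03, 0.22 and 0.22, and those of all probes tested 0.09, -0.01, -0.04, 0.04, -0.03, -0.21, 0.02 and 0.01.

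At 19 weeks CD3D A_72_P088671 read 5.32, 5.35, 5.43 and 5.29 in control, 6.39, 5.67, 5.86 and 6.06 in HFCD and 6.26, 5.89 and 5.83 in HFCSD. Probe A_72_P185936 read 4.92, 4.80, 4.53 and 5.06 in control, 6.18, 5.11, 5.69 and 5.35 in HFCD and 5.69, 5.78 and 5.26 in HFCSD. For both probes all arrays of either diet were above all control arrays. The differences were 0.65 in each diet for the first and 0.76 and 0.75 for the second, none past the adjusted threshold. CD3E read 8.61, 9.80, 9.49 and 9.40 in HFCD and 9.41, 9.57 and 7.73 in HFCSD, and both ranges overlapped that of control.

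CD2 A_72_P178131 at 19 weeks read 7.97, 7.65, 8.27 and 7.70 in HFCD, 0.98 above control and without overlap, and 7.91, 8.15 and 6.95 in HFCSD, of which the last lay within the control range. CD8A read 8.55, 8.72, 8.72 and 8.65 in control, 10.63, 8.73, 9.10 and 9.40 in HFCD and 9.04, 9.42 and 9.90 in HFCSD. It was 0.81 and 0.79 higher, again with every diet array above every control array. CD4 read 2.26, 3.29, 3.22 and 3.60 in control, with 1 of 4 arrays well above background, and was measured on 2 of 4 HFCD arrays and 1 of 3 HFCSD arrays.

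Since scan day was split at 19 weeks, each diet was also set against the control array of its own day. On that basis CD3D A_72_P088671 was higher by 0.68 in HFCD and 0.67 in HFCSD, beside 0.64 in both against the control arrays of the other day. CD8A was higher by 0.92 and 0.90, beside 0.77 and 0.76. CD2 A_72_P178131 was higher by 0.85 and 0.63, and CD3E by 1.13 and 0.71, where the other day gave 0.41 and -0.01 for CD3E. Some probes stood out less, or lower, against the control array of their own day. CD2 A_72_P131826 differed by -0.70 and -0.90, beside 0.79 and 0.59 for the other day, CD3G A_72_P354513 by -0.17 and -0.15, beside 0.77 and 0.80, and CD3G A_72_P088461 by 0.03 and 0.25, beside 0.87 and 1.08. CD3D A_72_P014531 differed by 0.46 and 0.59, beside -0.12 and 0.00. The mean change over the 6 genes was 0.66 in HFCD and 0.41 in HFCSD, and with scan day as a block in the fit it was 0.71 and 0.46. Since all diet arrays were scanned on day 3, this block rests on 1 control array and is the same contrast as a fit of the day 3 arrays alone, which was chosen after seeing the data. CD4 enters these means with 1.60 and 0.60 against a control array at 2.26 that was not well above background, beside 0.49 and -0.51 for the other day.

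At 27 weeks the largest member difference was in CD3E. The HFCSD arrays at 8.72, 9.79 and 9.73 stood 1.36 above the control mean (limma, adjusted p = 0.0978), and 2 of the 3 were above all control arrays, the highest of which was 8.90. With all 45 arrays in 1 fit the adjusted p was 0.0201. In white blood cells at 27 weeks CD3E read 8.91, 8.80, 9.48 and 9.22 in control, 9.59, 9.72, 9.32 and 9.43 in HFCD and 9.72, 9.71, 9.26 and 9.66 in HFCSD, with overlapping ranges.

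Adding sucrose to the diet moved no member past the test. For HFCSD against HFCD, 0 of 10 member probes passed in limma in whole blood at 10 weeks, beside 0% of all probes, 0 of 9 at 19 weeks, beside 0%, and 0 of 9 at 27 weeks, beside 0.0111%. For white blood cells it was 0 of 11, beside 0%. At an unadjusted p under 0.05 there were 1, 0, 0 and 0 members, and 886, 254, 2260 and 408 probes in all. For sucrose the methods' t-test gave 2, 0, 0 and 0 members and 856, 386, 1401 and 440 probes in all at that threshold, and 0 members after adjustment. The members' median differences were -0.27, -0.01, 0.12 and 0.04, beside -0.10, 0.09, -0.16 and 0.00 over all probes tested.

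Within whole blood the genes varied together only in part. Over the 33 arrays the correlation of CD3E with CD2 was 0.742 and with CD3D 0.638. After subtracting group means these were 0.28 and 0.344. CD4, measured on 20 of the 33 arrays, is left out here. CD8A had a correlation of -0.334 with CD3E and 0.49 with CD3G, or -0.188 and 0.52 within groups, and 0.117 with CD3D, which was 0.634 within groups. CD3E and CD3G had a correlation of -0.00572. Among 811 named genes measured on all arrays, those whose values followed the mean of the CD3 genes most closely over the same 33 arrays were STAT4 (0.94), PSME1 (0.931), CAPZA1 (0.911), EEF1A1 (0.907), SRSF4 (0.889) and APP (0.887). Within groups their correlations were 0.857, 0.823, 0.797, 0.814, 0.747 and 0.804. STAT4, which carries cytokine signals in T and natural killer cells, had group means of 8.78, 8.98 and 8.89 at 10 weeks and 7.93, 8.31 and 8.37 at 27 weeks in whole blood. On the chromosome CD3E, CD3D and CD3G lie side by side, and CD8A lies beside CD8B.

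Other T cell genes were sparse on the array. The counts of list genes that follow stand beside 45.3%, 47.5% and 58.9% of all probes that changed in white blood cells in the 3 diets, and 20.7%, 5.59% and 10.4% over time. A list gene is counted if any of its probes passed, while these shares are per probe, so the measures are unlike. A list probe not measured on every array may also have entered a test only through the group where it was high. Of 20 genes of the T cell receptor complex and its signalling the array named 6, and 5 were measured on at least 0.5 of the arrays, with the brightest probe being that of TRG at 11.16. No probe named CD247, LCK, ZAP70 or PTPRC. White blood cells showed 2 of them risen in each diet and 1 fallen in control, with median changes of 0.29, 0.85 and 0.79. Over time 1 rose in each diet and 2, 1 and 1 fell. FYN, a kinase of the receptor, rose in white blood cells by 1.74, 1.34 and 1.01 in the 3 diets by probe A_72_P146946, which fell in whole blood from 10 to 27 weeks by -1.92, -1.83 and -1.62. A second, dimmer FYN probe, A_72_P272174, rose in control and did not pass in HFCSD. Probes of TRA went both ways. A_72_P272729, measured on 45 arrays, had means of 8.29, 7.51 and 7.14 in whole blood at 27 weeks and 9.34, 8.76 and 8.63 in white blood cells. A_72_P184901, measured on 23 arrays, had 5.03, 4.14 and 3.54 and then 2.60, 1.66 and 2.04. Of 24 other T cell surface genes and regulators 10 were named and 7 measured, and CD5, CD6 and CD28 had no probe. Of these 3, 1 and 3 rose in white blood cells (medians 0.64, 0.23 and 0.88), and over time 2, 1 and 2 fell, among them CCR7, a homing receptor of naive T cells, by -1.80, -1.86 and -1.43. CD8B, the partner chain of CD8A, rose in control white blood cells by 1.06 by probe A_72_P386268 and fell in control whole blood over time by -1.30. By its other probe, A_72_P088456, the control means were 7.20 in whole blood at 10 weeks, 6.13 at 27 weeks and 6.74 in white blood cells.

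Genes of cytotoxic and natural killer cells (4 of 14 named, all measured, brightest probe NKL at 14.72) rose in white blood cells in 2, 3 and 3 cases, with medians of 0.93, 1.08 and 1.15. PRF1, the pore-forming protein of killer cells, is counted among these in all 3 diets. As 1 whole blood array of each diet did not measure it, it entered the tests only through white blood cells, and no call is drawn from it. Over time 2, 1 and 0 of these genes rose in whole blood, and KLRK1, a receptor also carried by killer cells, rose by 2.15 in control. The means of PRF1 in whole blood were 4.91, 5.34 and 4.86 at 10 weeks and lower at 27 weeks, at 4.13, 3.91 and 4.43. The mean of this list in control was 12.01 at 10 weeks, 13.18 at 27 weeks and 13.63 in white blood cells. No probe named GZMA or GZMB. Of the B cell genes 3 of 13 were named and measured, CD79A and MS4A1 were not, and 1, 1 and 2 rose in white blood cells (medians 0.58, 1.14 and 1.12) while 1 fell over time in each diet. That gene was CD72 by the dimmer probe A_72_P197872, measured on 35 arrays. Its whole blood means were 5.87, 5.58 and 5.79 at 10 weeks and 4.07, 3.71 and 4.21 at 27 weeks. As a filter passed through 10 weeks favours a fall, no call is drawn from it. The brighter CD72 probe A_72_P146971 gave -0.27, -0.94 and -0.82 and did not pass. The mean of the B cell list in control was 7.59 at 10 weeks, 7.09 at 27 weeks and 7.46 in white blood cells.

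Monocyte genes (6 of 10 named and measured, brightest probe LYZ at 13.10) rose in white blood cells in 5, 3 and 2 cases (medians 1.28, 0.94 and 0.96) and changed over time in none, with a mean of 10.01 in control whole blood at 27 weeks and 10.74 in white blood cells. CD14, a monocyte surface receptor, rose in control by the dimmer probe A_72_P088666, measured on 41 arrays, while the brighter probe A_72_P050971 gave 0.65, -0.02 and -0.18 in the 3 diets and did not pass. CD68 also counted as risen in each diet by a dim probe, A_72_P117241, measured on 26 arrays. That probe had means of 3.63, 3.46 and 2.47 in whole blood at 27 weeks and 7.21, 7.39 and 7.75 in white blood cells. As a filter passed through white blood cells favours a rise, no call is drawn from it. The brighter CD68 probes A_72_P231802 and A_72_P295799 did not pass (-0.35 and -0.13 in control). Neutrophil genes (4 of 14 named and measured, without S100A8 and S100A9) had means of 12.66 and 11.98 in the same groups. ARG1, their gene with the brightest probe, fell by -3.02, -3.72 and -3.42 in white blood cells by probe A_72_P057696, and no other gene of the list changed in this comparison. Platelet genes (3 of 10 named and measured, brightest probe ITGA2B at 12.03) had means of 11.78 ± 0.25 in control whole blood and 12.04 ± 2.78 in control white blood cells, and none passed the test in white blood cells or over time. Single white blood cell arrays stood far apart: control replicate 1 at 7.87 beside 13.23, 13.43 and 13.63, and HFCD replicate 2 at 6.92 beside 12.25, 11.30 and 13.02. White blood cell replicates 3 and 4 of HFCSD stood at 10.52 and 9.92 beside 13.16 and 12.48. In whole blood, HFCD replicates 1 and 4 at 19 weeks stood at 8.36 and 8.84 beside 11.29 and 11.75, and HFCSD replicate 3 at 27 weeks at 9.28 beside 12.01 and 11.40. Replicate 2 of HFCSD at 19 weeks stood at 9.90 beside 11.35 and 11.42. HFCD replicate 1 at 19 weeks also had the highest value of that week for CD8A, 10.63. The same holds for CD3D A_72_P088671, at 6.39, and CD3D A_72_P185936, at 6.18. Of 13 erythroid genes only HBA was named and it was not well above background on at least 0.5 of the arrays, HBB and ALAS2 had no probe, so red cell RNA was not measured here. No gene of the 8 lists passed limma's test between diets. Whether cell composition accounts for any change of the T cell surface genes was not tested.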

How the data were processed

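Values are the authors' deposited scanner intensities (processed green signal) of 1 array per sample, with the deposited flags for well above background and for outlier spots. They were taken to log2, outlier spots were left out, and the 45 arrays were quantile normalized, the method the submitters name, and probes averaged over their spots. The submitters' notes name Feature Extraction 9.5.3.1, while the file headers give 10.5.1.1. The deposited series table, described as quantile normalized by the authors, served only as an alternative after taking log2, and its exact steps are not known. Tests were made with limma 3.58.1 (moderated, two-sided) in R 4.3.3, with Benjamini-Hochberg adjustment over all probes tested in a comparison. The diet groups of a sample type and week, the 22 arrays of 27 weeks, or the 33 whole blood arrays were fitted together. Other tools were matplotlib 3.10.9, scipy 1.17.1, statmod 1.5.0, pandas 2.3.3, R's data.table, version 1.17.8, numpy 2.4.6 and Python 3.11.15. Probes were named by accession (2032), gene name (695) or description (21). The members and lists were chosen with earlier results of these data known. Tests and alternatives, apart from the setting with only scan day 3, were fixed before the values were read. Besides the members, the genes named are preset marker genes, up to 4 genes with the brightest probes of each of 8 marker lists, and the 6 genes with the highest correlation with the CD3 mean. Correlations are Pearson's, given as description without a test. The mean change over the 6 genes averages their gene values.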

Additional observations from a re-analysis of the deposited data

Results flagged for a closer look

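Single arrays far from the other 3 of their group were found in 7 of the 84 sets of 4 arrays examined, 6 of them in white blood cells. Chance alone gives about 1 in 20. In white blood cells of control, replicate 3 read 7.10 for CD3D A_72_P088671 (others 6.47 to 6.53) and 7.27 for CD3G A_72_P354513 (others 6.42 to 6.54). Replicate 4 of that group read 11.11 for CD3G A_72_P088461 (others 12.11 to 12.29) and 5.59 for CD2 A_72_P131826 (others 6.67 to 6.90). In white blood cells of HFCSD, replicate 3 read 9.26 for CD3E (others 9.66 to 9.72) and replicate 2 read 8.79 for CD2 A_72_P178131 (others 8.23 to 8.28). In whole blood of HFCSD at 10 weeks, replicate 3 read 7.93 for CD2 A_72_P178131 (others 8.15 to 8.16). The causes were not tested.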

How the results depend on the processing

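No change that passed its test turned its sign under the alternatives run. Several mean changes near 0 did. For example, over the alternatives that of HFCSD at 10 weeks ran from -0.13 to 0.02, and those of the ratios of HFCD and HFCSD minus control from -0.10 to 0.06 and from -0.37 to 0.08. The mean changes over the 6 genes kept within their spread in 276 of 283 cases under other settings and in 344 of 344 with 1 array left out. The exceptions were 7. With a model-based background subtraction, the mean change was 0.41 in place of 0.66 for HFCD at 19 weeks, 0.60 in place of 0.98 for white blood cells against whole blood in control, 0.67 in place of 0.95 in HFCSD, and -0.45 in place of -0.72 for control from 10 to 27 weeks. With a covariate for the share of bright spots on each array it was 0.00 in place of 0.18 for HFCD at 10 weeks, 0.54 in place of 0.95 for white blood cells against whole blood in HFCSD, and -0.37 in place of -0.03 for the ratio of HFCSD minus control. With replicate number as a replicate block, a pairing that the labels do not state, the changes in white blood cells were 0.98, 1.00 and 1.03 in place of 0.98, 0.92 and 0.95. The number of all probes that passed moved by over 1.5 times in several comparisons. Diet comparisons with 7 or fewer such probes ranged from 0 to 9 over the alternatives, apart from 525 and 326 in place of 3 and 3 at 19 weeks and 79 in place of 7 for HFCSD in white blood cells with all 45 arrays in 1 fit, and 75 and 73 at 19 weeks within scan day 3, which has a single control array whose spread is taken from the other groups. For HFCSD at 27 weeks 1824 became 454 without a filter, 142 by the methods' t-test and 0 with the covariate. Between sample types 8619, 9230 and 11587 became 5405, 5675 and 6893 with probes measured on all arrays, and 11587 became 6174 with the covariate. For the ratio of HFCSD 281 ranged from 2 to 836. Over time 3543, 1055 and 1709 became 1272, 154 and 1008 by the methods' t-test, and 1709 became 1018 with probes measured on all arrays and 1028 with the covariate. The share of rises among the changed probes moved by over 10 percentage points in several settings. For HFCSD at 27 weeks it went from 63.7% to 79.2% with the replicate block and to 75.4% with only the groups compared. With the covariate it went to 51.8% from 63.3% for white blood cells in HFCSD and to 47.2% from 58.8% for control over time. Scan day could be fitted only at 19 weeks, and the methods' t-test was not run for differences of ratios. Among single member probes, 31 of 2518 values under the alternatives fell short of the threshold, 12 came past it and 49 moved beyond their spread. With 1 array left out, 39 of 3357 fell short and 10 came past it. With the alternatives the fitted change of CD4 in white blood cells of control ran from 0.28 to 1.46. That of CD3D A_72_P185936 over time ran from -2.07 to -0.65 in control, -1.68 to -0.73 in HFCD and -1.34 to -0.41 in HFCSD. Signal near background limits CD4 and CD2 A_72_P260397. The cause was not tested.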

Other observations

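Probe A_72_P347793 is named only "CD8", without saying which chain, so it was left out of the members. It was well above background on all 45 arrays. Its mean log2 intensities in whole blood, with control first, then HFCD and then HFCSD, were 7.88, 7.54 and 8.36 after 10 weeks. They were 7.48, 6.72 and 7.40 after 19 weeks, and 8.24, 7.13 and 6.94 after 27 weeks. In white blood cells the same diets gave 8.57, 7.73 and 7.99.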
